A study of Homo sapiens with 8 samples.

Results

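The 56 genes described here encode the machinery that copies DNA in S phase and the cyclins, E2F factors and pocket proteins that switch it on. They were taken by symbol, out of 25268 gene symbols in the expression files. All 56 were found, and 46 had a mean of at least 1 FPKM (fragments mapped to a gene, scaled by transcript length and library size) and a usable estimate in every sample, so 46 entered the tests. The samples were polyadenylated RNA from 2 human fibroblast lines, which the labels call population controls, grown in serum and transfected with Lipofectamine RNAiMax. Each line received non-targeting control siRNA in 2 samples and SUPT4H1 siRNA in 2 samples. That gives 4 groups of 2 and 8 samples in all. SUPT4H1 encodes the smaller subunit of DSIF, a transcription elongation factor that travels with RNA polymerase II. No time or dose of siRNA is given in the sources used here. Replicates are separate siRNA treatments of a line, so the p-values measure the spread between these treatments, which may be technical.

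Before S phase, the origin recognition complex (ORC1 to ORC6) with CDC6 and CDT1 loads the MCM2 to MCM7 helicase onto DNA, a step called licensing, and geminin (GMNN) blocks CDT1 afterwards. MCM10, CDC45 and the GINS complex then turn the loaded helicase into a working one. Polymerase alpha with primase starts each strand, and polymerases delta and epsilon extend it on the sliding clamp PCNA, which the RFC complex loads. RPA coats single strands, and FEN1 and LIG1 trim and join the short lagging strand pieces. Ribonucleotide reductase (RRM1 and RRM2), TYMS and TK1 supply nucleotides. D-type and E-type cyclins drive phosphorylation of the pocket proteins RB1, RBL1 and RBL2, which releases E2F factors, and E2F factors activate many of the genes named here. Fibroblasts leave the cycle readily, and in resting fibroblasts most of these genes are low.

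E2F binding is the shared feature for which these promoters are known. The 160 bases before the annotated start are therefore shown for 7 of the 16 members in which a word of an E2F site was found. Members without such a word are not shown. The windows are read 5′ to 3′ along the gene from RefSeq promoters of build GRCh38.p14. PCNA, POLA2, LIG1 and E2F1 were higher after SUPT4H1 siRNA, MCM7 and E2F3 were lower, and MCM6 did not pass the test in either direction. Capitals mark any of 4 words of E2F sites, TTTCCCGC, TTTCGCGC, TTTGCCGC and TTTGGCGC, read on either strand.
PCNA: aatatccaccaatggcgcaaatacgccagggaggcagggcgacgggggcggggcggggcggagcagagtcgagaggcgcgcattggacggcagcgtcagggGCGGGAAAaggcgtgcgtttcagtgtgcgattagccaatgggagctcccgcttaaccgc
POLA2: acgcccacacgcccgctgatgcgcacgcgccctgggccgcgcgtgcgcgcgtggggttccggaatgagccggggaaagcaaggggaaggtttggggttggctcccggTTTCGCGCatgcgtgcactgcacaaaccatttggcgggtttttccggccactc
LIG1: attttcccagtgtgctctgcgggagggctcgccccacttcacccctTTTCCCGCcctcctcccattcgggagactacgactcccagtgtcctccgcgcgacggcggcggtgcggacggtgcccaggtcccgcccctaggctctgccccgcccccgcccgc
E2F1: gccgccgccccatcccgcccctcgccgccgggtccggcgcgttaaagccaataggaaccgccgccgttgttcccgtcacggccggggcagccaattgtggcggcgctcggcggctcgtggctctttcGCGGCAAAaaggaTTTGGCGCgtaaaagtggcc
MCM7: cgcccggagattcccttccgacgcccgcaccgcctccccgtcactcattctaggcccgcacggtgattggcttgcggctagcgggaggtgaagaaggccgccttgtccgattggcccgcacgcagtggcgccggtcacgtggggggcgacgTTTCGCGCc
E2F3: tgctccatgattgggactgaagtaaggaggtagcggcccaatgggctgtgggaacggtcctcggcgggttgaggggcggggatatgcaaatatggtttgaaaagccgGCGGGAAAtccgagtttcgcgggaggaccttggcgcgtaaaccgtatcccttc
MCM6: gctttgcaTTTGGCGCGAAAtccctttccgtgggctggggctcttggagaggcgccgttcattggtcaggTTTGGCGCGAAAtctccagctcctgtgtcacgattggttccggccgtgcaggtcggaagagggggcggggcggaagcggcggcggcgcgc
The windows lie at chr20:5126623-5126782 on the minus strand for PCNA, chr11:65261802-65261961 on the plus strand for POLA2, chr19:48170345-48170504 on the minus strand for LIG1 and chr20:33686386-33686545 on the minus strand for E2F1. Those of the others are chr7:100101398-100101557 on the minus strand for MCM7, chr6:20401719-20401878 on the plus strand for E2F3 and chr2:135876444-135876603 on the minus strand for MCM6. In MCM6, the words form 2 runs of TTTGGCGCGAAA, in each of which a forward and a reverse word overlap.

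Within 250 bases before the start, 16 of the 47 members with a promoter entry held at least 1 of the 4 words (34.04%). Among all 27305 promoters of the table, read over the same length, 761 did (2.79%), and among 8668 tested genes with an entry 395 did (4.56%). Besides the 7 shown, the holders were ORC3, CDT1, MCM3, GINS2, POLA1, POLE, RFC3, TYMS and RBL1. The words were found in 5 of the 14 matched members that rose and in 11 of the other 33. A CCAAT box (CCAAT, either strand) stood in 24 of the 47 members (51.06%) against 33.04% of all promoters and 34.97% of tested genes. The CHR words TTTGAA and TTCGAA, known from promoters of mitotic genes, stood in 3 of the 47 (6.38%). Their share was 14.59% of all promoters and 9.38% of tested genes. These are matches of letters, not measured binding.

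In line 1, SUPT4H1 mRNA was at 25.6 and 25.6 FPKM under control siRNA, and in line 2 at 26.2 and 28.3. After SUPT4H1 siRNA it was 1.37 and 1.43 FPKM in line 1 and 1.69 and 1.74 in line 2, so that 5.46% and 6.3% were left (log2 change -3.42, SE 0.03, limma adjusted p = 3.97e-11). An exact 2-sided permutation test over all 70 arrangements of the samples gave p = 0.0286, and over the 36 arrangements within lines p = 0.0556, each the smallest it can give. Read counts were not among the values used, and the depth of each library relative to the first, read from the steps of low values, lay between 0.82 and 1.127. The deposited 95% intervals had a typical half-width of 14.9 to 17.5% of the value for genes of 1 to 2 FPKM and of 4.95 to 5.48% for genes of 10 FPKM or more. The 10 fibroblast markers with usable estimates in every sample, which leaves out COL1A1 and COL1A2, summed to 13152 to 13270 FPKM in the controls and 12649 to 13214 after SUPT4H1 siRNA in line 1. In line 2 they summed to 12546 to 12834 FPKM in the controls and 11277 to 11474 after SUPT4H1 siRNA, without overlap. The epithelial, endothelial and melanocyte lists summed to at most 9.32, 0.1 and 0.16 FPKM. The muscle and nerve list summed to 1.69 to 2.05 FPKM in the controls and 0.85 to 1.03 in the treated samples of line 1, and to 1.29 to 1.39 and then 0.89 to 0.96 in line 2. The blood cell list summed to 51.4 to 51.9 FPKM in the controls and 59.4 to 60.3 after SUPT4H1 siRNA in line 1, and to 45.1 to 47.1 in the controls and 75.5 to 78.1 after SUPT4H1 siRNA in line 2. Nearly all of it was CD68, which fibroblasts also express, with CD3E at 0 and PTPRC at most at 0.206 FPKM. The part of these lists in the results was not tested.

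After SUPT4H1 siRNA, 15 of the 46 tested members rose and 3 fell at a limma adjusted p under 0.05 with the line as a block. The risers were CCND1 and CCND3, PCNA, RPA1, FEN1 and LIG1, RRM2, TYMS and TK1, CDC6 and ORC6, POLA2, PRIM1 and POLD2, and E2F1. MCM7, E2F3 and PRIM2 fell. The shares were 32.6% higher and 6.52% lower, against a background of 26.8% higher and 15.2% lower among all 11442 genes tested, so the share of risers was near the background. The median change of the members was a log2 of 0.07, with 34 of 46 above 0, against 0.03 for all genes. CCND1 was the only tested member past 0.5 on the log2 scale, and the other estimates lay between -0.18 and 0.41. Log2 changes are of FPKM plus a pseudocount of 1, which shrinks the change of genes near 1 FPKM: with a pseudocount of 0.1 RRM2 reached 0.54 and CCND1 0.73. Ratios of mean FPKM in each line are therefore given for the called members of low level. In RNA from whole cultures, more cells in S phase and more RNA per cell cannot be told apart.

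Without a term for the line, as in the grouping of 4 against 4 given in the study's design, only RPA1 (adjusted p = 0.0394) and CCND3 (adjusted p = 0.00707) passed, and 0 members were called lower, 1 at an unadjusted p under 0.05 in limma. That fit called 3.56% of all genes higher and 1.78% lower, and the other 16 members had adjusted p-values from 0.055 to 0.677. When the samples were rescaled by median ratios, 13 members rose and 5 fell, with ORC6 and POLD2 no longer passing and RFC1 and RPA3 passing as lower. Over all genes that rescaling gave 2319 higher and 2310 lower in place of 3072 and 1743. Of the 18 called members, 13 passed in every fit that left out 1 sample.

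**Figure D1:**
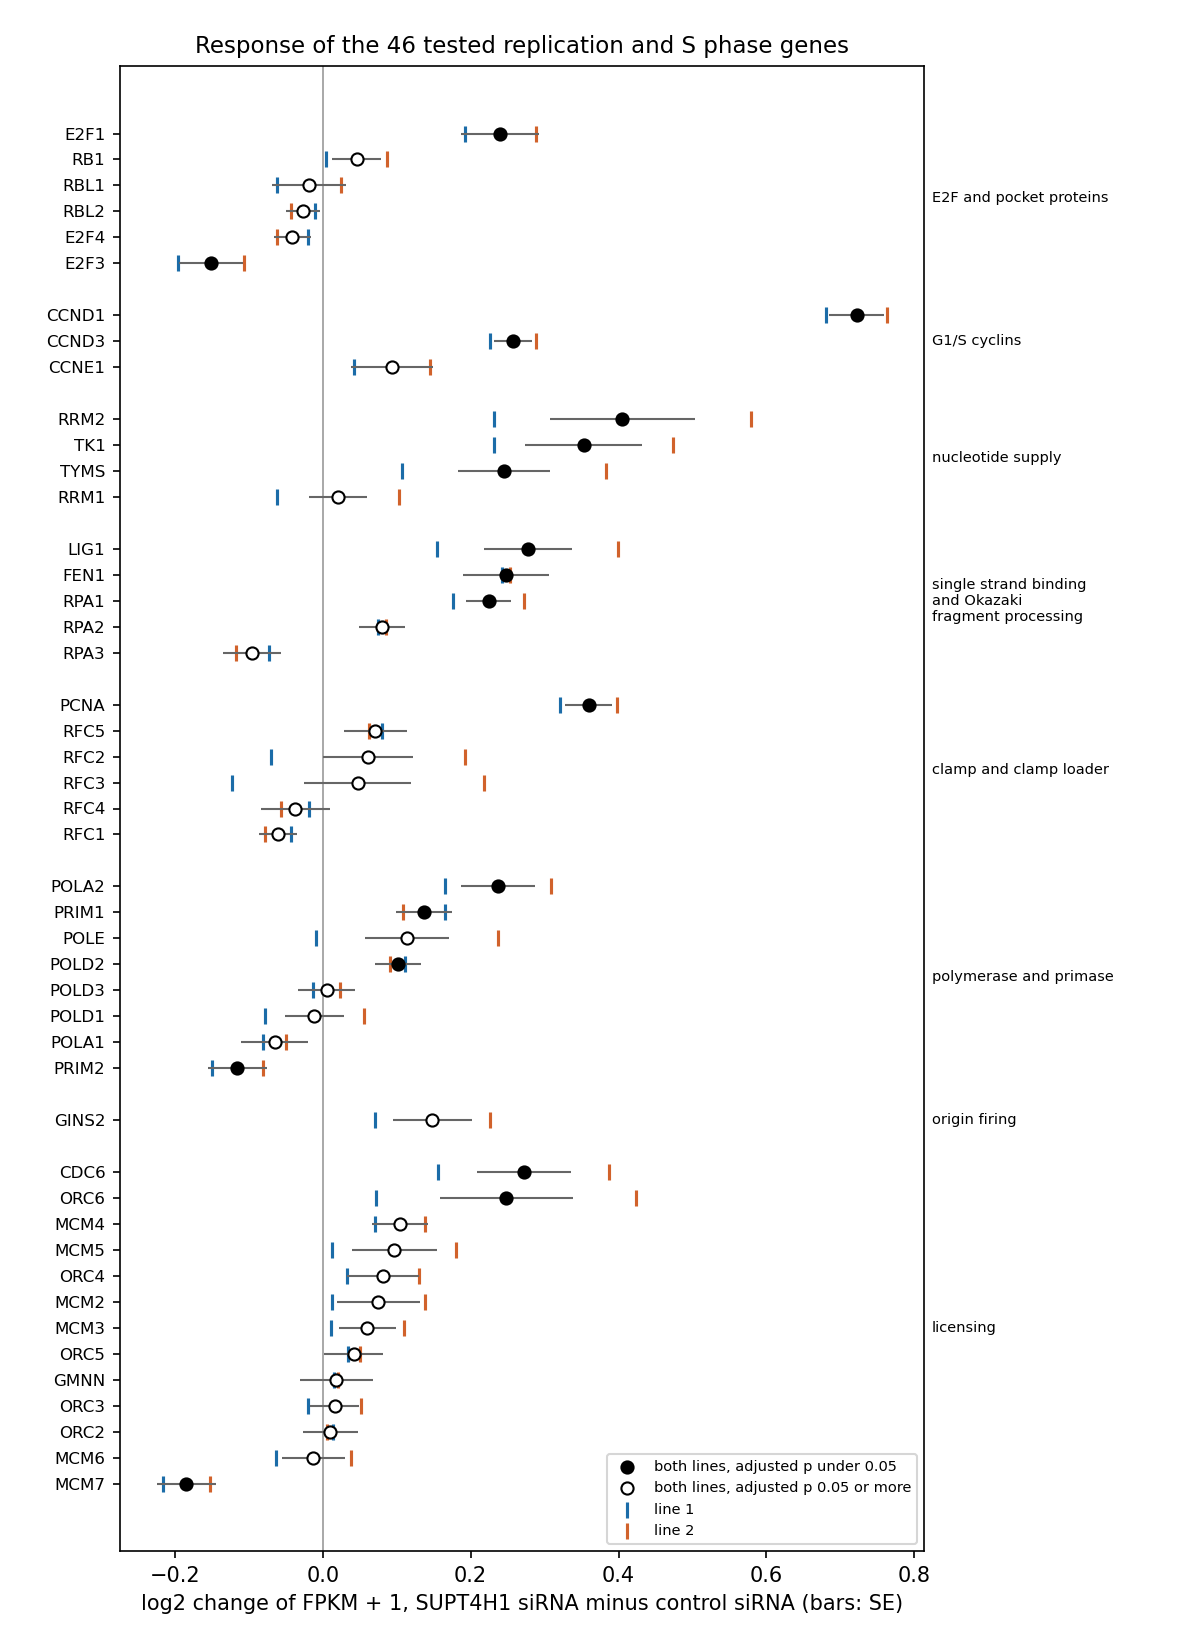
Log2 change of FPKM plus 1 after SUPT4H1 siRNA for the 46 tested members, grouped by role. Circles are the estimates over both lines with bars of 1 SE (n = 4 against 4), filled where the limma adjusted p is under 0.05, and ticks are the estimates in line 1 and line 2. CCND1 stands apart at 0.72, and MCM7 has the lowest estimate at -0.18.

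Among the cyclins of the G1 to S transition, 2 of 3 tested members rose and 0 fell in limma, and 0 were lower at an unadjusted p under 0.05. The share of risers was 66.7%, against 26.8% of all genes. CCND1, the cyclin D1 gene, had the highest log2 change of the tested members with either pseudocount, while in line 2 RRM2 (1.7) and the untested CCND2 (1.72) had ratios of mean FPKM about as high. It lies on hg19 chromosome 11 from 69455873 to 69469242. Line 1 had 82.6 and 84.1 FPKM under control siRNA and 141 and 127 after SUPT4H1 siRNA. In line 2 the controls had 179 and 187 FPKM and the SUPT4H1 siRNA samples 309.9 and 313. Within each line both treated samples lay well above both controls, but the treated samples of line 1 remained below the controls of line 2. CCND1 rose 1.61-fold in line 1 and 1.7-fold in line 2 (log2 change 0.72, SE 0.04, adjusted p = 2.49e-06), and the difference between those responses had an adjusted p of 0.472. CCND3, which encodes cyclin D3 (hg19 chromosome 6 from 41902671 to 42016632), was at 12.5 and 12.9 FPKM in the controls and 15.0 and 14.9 after SUPT4H1 siRNA in line 1, and at 12.5 and 12.7 and then 15.6 and 15.7 in line 2. All 4 treated samples exceeded all 4 controls, and the lines lay at nearly the same level. The increase was 1.18-fold in line 1 and 1.24-fold in line 2 (log2 change 0.26, SE 0.03, adjusted p = 9.26e-05). CCNE1, the third tested cyclin of this kind, had a log2 change of 0.09 (SE 0.06, adjusted p = 0.208). CCND2 and CCNE2 were below the test's level.

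The kinase partners of these cyclins did not pass the test over both lines. CDK2 had a log2 change of 0.09 (SE 0.05, adjusted p = 0.13). Its ratio was 0.998 in line 1 and 1.16 in line 2, where it was called higher in limma (adjusted p = 0.00895). The log2 change was -0.02 for CDK4 (SE 0.03, adjusted p = 0.642), and for CDK6 it was -0.02 (SE 0.04, adjusted p = 0.687). Of the inhibitors, CDKN1A (p21) stood at 283 FPKM on average with a change of 0.01 (SE 0.02, adjusted p = 0.811), and CDKN1B (p27) had -0.03 (SE 0.03, adjusted p = 0.537). CDKN2B (p15) rose by a log2 of 0.33 (SE 0.08, adjusted p = 0.0074), 1.55-fold in line 1 and 1.12-fold in line 2, and here the lines differed (log2 difference of the responses -0.38, adjusted p = 0.0252). That difference was lost, at up to 0.087, in 6 of the 8 fits that left out a sample, all but those without control replicate 2 of line 1 or control replicate 1 of line 2. CDKN2A, its neighbour, which encodes p16 and ARF, fell by 0.15 (SE 0.03, adjusted p = 0.00258).

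Nucleotide supply had 3 of 4 members higher (75%, against 26.8% of all genes), with a median log2 change of 0.30. The groups by role were not tested against all genes. RRM2, the regulated subunit of ribonucleotide reductase, was at 1.72 and 1.55 FPKM in the controls of line 1 and 2.38 and 1.83 after SUPT4H1 siRNA. In line 2 it was at 2.01 and 2.64 in the controls and 4.32 and 3.6 after SUPT4H1 siRNA. The treated samples exceeded the controls within each line, by less than the gap between replicates in line 1. RRM2 rose 1.29-fold and 1.7-fold in lines 1 and 2 (log2 change 0.41, SE 0.10, adjusted p = 0.00951). TK1, the thymidine kinase of the salvage route, had 2.25 and 2.38 FPKM in the controls and 3.19 and 2.62 in the treated samples of line 1, and 4.54 and 5.72 and then 7.08 and 7.88 in line 2. The treated samples exceeded the controls in each line, while every sample of line 2 exceeded every sample of line 1. TK1 rose, with ratios of 1.25 in line 1 and 1.46 in line 2 (log2 change 0.35, SE 0.08, adjusted p = 0.00672).

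TYMS, thymidylate synthase, stood at 15.6 and 16.7 FPKM in the controls and 18.0 and 17.0 after SUPT4H1 siRNA in line 1. Line 2 had 12.7 and 14.5 FPKM in the controls and 17.7 and 18.2 after SUPT4H1 siRNA. In line 1 the treated samples were above the controls by only a small margin, and in line 2 the groups were far apart. The ratio was 1.08 in line 1 (adjusted p = 0.191) and 1.32 in line 2 (adjusted p = 0.000549), and the test of the difference gave an adjusted p of 0.0642. Over both lines TYMS rose by a log2 of 0.25 (SE 0.06, adjusted p = 0.0116). Its locus overlaps those of TYMSOS and ENOSF1 (1.31 and 2.41 FPKM on average), and since the use of strand is not given in the sources used here, their reads cannot be told apart there. RRM1, the partner of RRM2, had a change of 0.02 (SE 0.04, adjusted p = 0.701). RRM2B, the p53-regulated small subunit that serves DNA repair and resting cells, is no member of the 56 and rose by 0.36 (SE 0.03, adjusted p = 1.76e-05), at a level of 28.3 FPKM against 2.51 for RRM2.

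Among the genes for strand binding and Okazaki fragments, 3 of 5 rose and 0 fell in limma, with a median of 0.22 on the log2 scale, and RPA3 was lower at an unadjusted p under 0.05. The share of risers was 60%, against 26.8% of all genes. RPA1, the large subunit of the single strand binding protein, lies on hg19 chromosome 17 from 1733273 to 1802848. It had 14.1 and 14.1 FPKM in the controls and 16.0 and 16.2 in the treated samples of line 1, and 12.4 and 13.1 and then 15.9 and 15.3 in line 2. All 4 treated samples lay above all 4 controls. RPA1 rose 1.14-fold in line 1 and 1.22-fold in line 2 (log2 change 0.22, SE 0.03, adjusted p = 0.000449). The other 2 subunits of the same trimer did not pass, RPA2 at a log2 of 0.08 (SE 0.03, adjusted p = 0.0651) and RPA3 at -0.10 (SE 0.04, adjusted p = 0.0783), and RPA3 shares its locus with RPA3OS.

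LIG1, the ligase that seals Okazaki fragments, was at 1.98 and 2.1 FPKM in the controls and 2.23 and 2.54 after SUPT4H1 siRNA in line 1. In line 2 the values were 1.75 and 1.79 in the controls and 2.54 and 2.78 after SUPT4H1 siRNA. The 4 treated samples exceeded the 4 controls, with the wider gap in line 2. LIG1 rose 1.17-fold and 1.5-fold (log2 change 0.28, SE 0.06, adjusted p = 0.00546). FEN1, the flap endonuclease, had 3.01 and 3.0 FPKM in the controls and 4.08 and 3.42 in the treated samples of line 1, and 3.37 and 4.13 and then 4.56 and 4.73 in line 2. Groups were apart within each line, while 1 control sample of line 2 lay above the treated samples of line 1. Its ratios were 1.25 and 1.24, nearly alike in the lines (log2 change 0.25, SE 0.06, adjusted p = 0.00845).

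PCNA was the only one of the 6 clamp and clamp loader genes that changed over both lines (16.7% higher, against 26.8% of all genes). Its locus is hg19 chromosome 20 from 5095599 to 5107268, with a short overlap with PCNA-AS1 (3.19 FPKM). The controls had 34.8 and 35.3 FPKM in line 1 and 27.2 and 29.5 in line 2, and the treated samples 44.3 and 43.7 in line 1 and 37.0 and 38.4 in line 2. All treated samples exceeded all controls. PCNA rose 1.26-fold in line 1 and 1.33-fold in line 2 (log2 change 0.36, SE 0.03, adjusted p = 4.83e-05). The RFC subunits that load it had log2 changes from -0.06 for RFC1 (SE 0.03, adjusted p = 0.0908) to 0.07 for RFC5 (SE 0.04, adjusted p = 0.213). No RFC gene was called over both lines in limma, and at an unadjusted p under 0.05 RFC1 was lower.

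**Figure D2:**
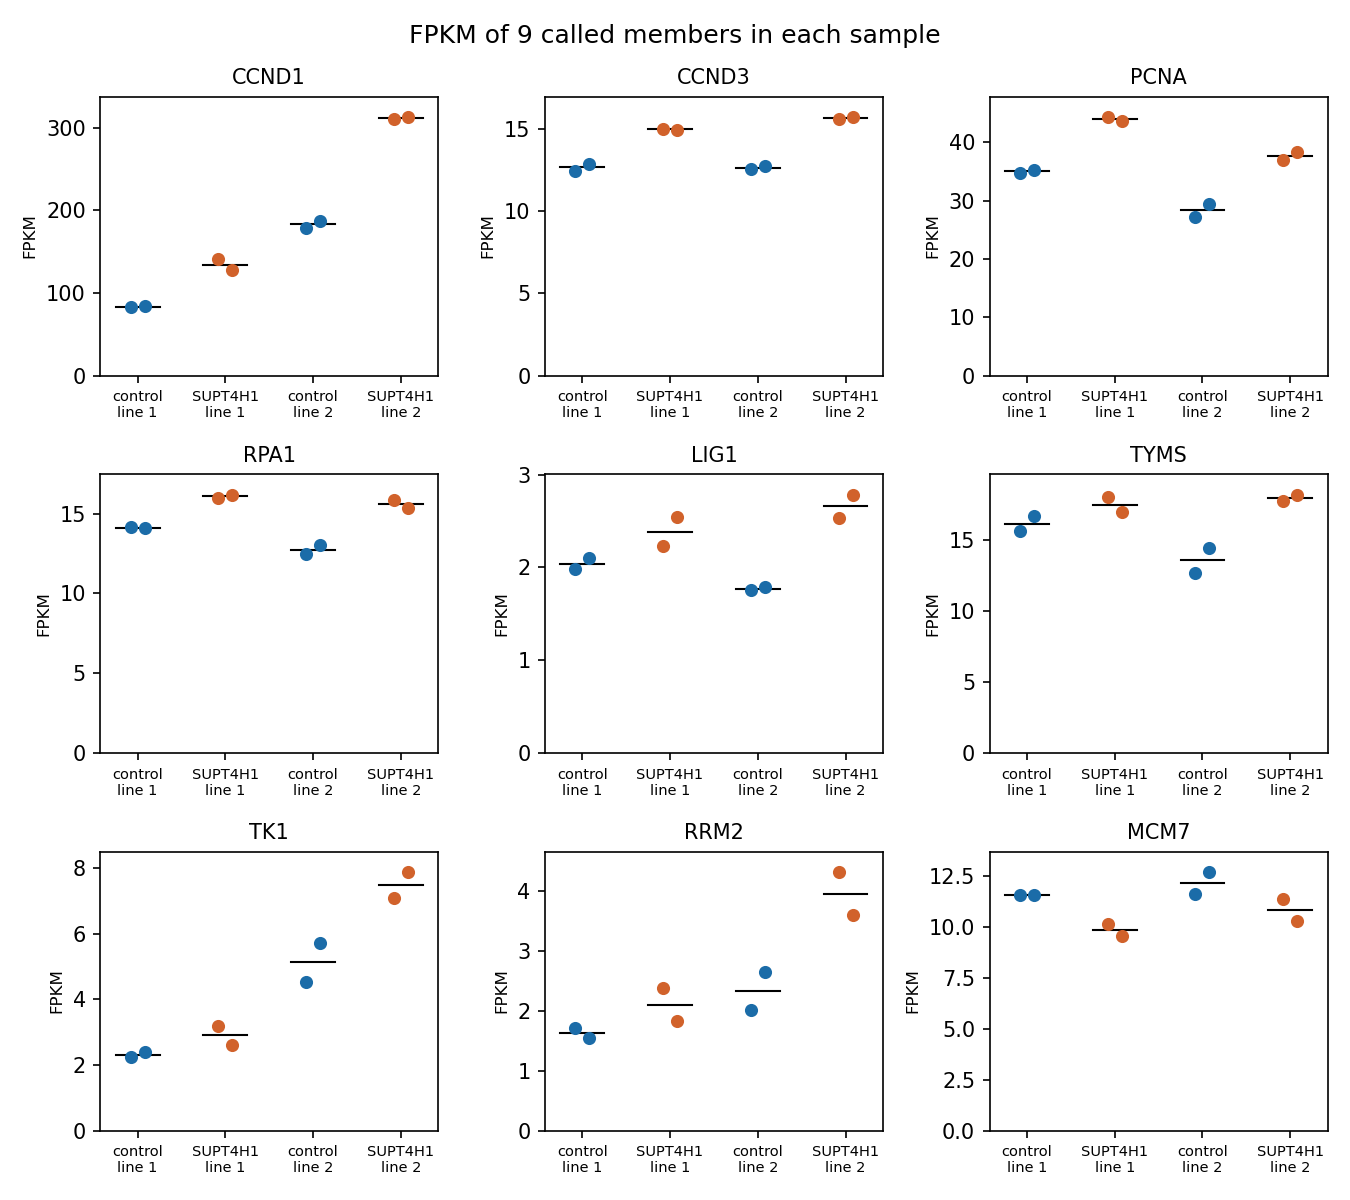
FPKM of 9 called members in each of the 8 samples, control siRNA in blue and SUPT4H1 siRNA in orange, with lines at the mean of each group (n = 2), on axes that start at 0. The orange points lie above the blue points of the same line in 8 panels and below them for MCM7, and for CCND1 and TK1 line 2 lies above line 1.

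Of the licensing genes, 2 of 13 tested members rose (15.4%) and 1 fell (7.69%), against 26.8% and 15.2% of all genes, with a median log2 change of 0.06. CDC6, the loader ATPase, was at 0.841 and 0.884 FPKM in the controls and 1.14 and 1.01 after SUPT4H1 siRNA in line 1, and at 0.954 and 1.21 and then 1.7 and 1.73 in line 2. The treated samples lay above the controls within each line, on values near 1 FPKM where the log2 scale compresses change. CDC6 rose 1.25-fold in line 1 and 1.59-fold in line 2 (log2 change 0.27, SE 0.06, adjusted p = 0.00815). It reached the level for testing only through its treated samples (mean 1.40 FPKM, against 0.972 in the controls), so a fall could not have been called. CDC6 also passed in the fit with no filter on level. ORC6, the smallest ORC subunit, had 1.06 and 0.880 FPKM in the controls and 1.09 and 1.05 in the treated samples of line 1, and 1.1 and 1.43 and then 1.79 and 2.28 in line 2. Its groups overlapped in line 1 and were apart in line 2. ORC6 passed narrowly, with ratios of 1.1 in line 1 and 1.61 in line 2 (log2 change 0.25, SE 0.09, adjusted p = 0.0498) and no longer passed, at up to 0.131, when any sample was left out other than control replicate 1 or SUPT4H1 replicate 2 of line 1. ORC2 to ORC5 had changes from 0.01 to 0.08, and GMNN had 0.02, none of them called.

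Of the 6 helicase subunits, MCM7 fell and none of the others was called in limma. MCM7 (hg19 chromosome 7 from 99690351 to 99699563) was at 11.6 and 11.6 FPKM in the controls of line 1 and 10.1 and 9.55 after SUPT4H1 siRNA. In line 2 the controls had 11.6 and 12.7 FPKM and the treated samples 11.4 and 10.3. All 4 treated samples lay below all 4 controls. The ratio of MCM7 to its control was 0.849 in line 1 and 0.891 in line 2, a fall (log2 change -0.18, SE 0.04, adjusted p = 0.00582). Its locus overlaps AP4M1 (6.71 FPKM) and the miRNAs MIR25, MIR93 and MIR106B, which lie in its introns. MCM2 to MCM6 had log2 changes from -0.01 for MCM6 (SE 0.04, adjusted p = 0.835) to 0.10 for MCM4 (SE 0.04, adjusted p = 0.0509). In ratios of mean FPKM they lay between 0.950 and 1.06 in line 1 and between 1.03 and 1.16 in line 2. The difference of MCM7 from the other subunits was not tested.

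Of the 6 origin firing genes only GINS2, a subunit of the GINS complex, reached the level for testing. It had 0.775 and 0.674 FPKM in the controls and 0.830 and 0.791 after SUPT4H1 siRNA in line 1, and 1.29 and 1.34 and then 1.59 and 1.83 in line 2. Both treated samples exceeded both controls in each line, by little in line 1. GINS2 narrowly missed the threshold, with ratios of 1.12 and 1.3 (log2 change 0.15, SE 0.05, adjusted p = 0.0509). The 10 members below the level for testing were ORC1, CDT1, MCM10, CDC45, GINS1, GINS3, GINS4, POLE2, CCND2 and CCNE2, all between 0.144 and 1.27 FPKM in every sample. In a fit with no filter on level, over 18902 genes, CDC45 (log2 change 0.15, adjusted p = 0.0271) and CCND2 (log2 change 0.15, adjusted p = 0.0171) were higher. CCND2, the third D-type cyclin, had 0.184 and 0.190 FPKM in the controls and 0.266 and 0.233 in the treated samples of line 1, and 0.308 and 0.308 and then 0.511 and 0.551 in line 2.

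Polymerase and primase genes split, with 3 of 8 higher (37.5%), 1 lower (12.5%) and a median of 0.05. All genes had 26.8% higher and 15.2% lower. POLA2, the B subunit of polymerase alpha, was at 2.62 and 2.82 FPKM in the controls and 3.04 and 3.3 after SUPT4H1 siRNA in line 1, and at 2.55 and 2.23 and then 3.1 and 3.29 in line 2. All treated samples exceeded all controls. POLA2 rose 1.17-fold and 1.34-fold in lines 1 and 2 (log2 change 0.24, SE 0.05, adjusted p = 0.00494), whereas POLA1, the catalytic subunit of the same enzyme, had -0.07 (SE 0.04, adjusted p = 0.272). PRIM1, the catalytic primase subunit, had 1.55 and 1.58 FPKM in the controls and 1.87 and 1.88 in the treated samples of line 1, and 1.27 and 1.29 and then 1.45 and 1.46 in line 2. In each line the treated samples exceeded the controls by more than the gap between replicates. PRIM1 rose 1.2-fold in line 1 and 1.14-fold in line 2 (log2 change 0.14, SE 0.04, adjusted p = 0.017), and without control replicate 1 of line 1 the adjusted p was 0.0518.

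PRIM2, the large primase subunit, had 10.5 and 10.3 FPKM in the controls and 9.26 and 9.29 after SUPT4H1 siRNA in line 1, against 11.8 and 12.3 and then 10.6 and 12.1 in line 2. In line 2 the groups overlapped. PRIM2 fell by 0.12 on the log2 scale (SE 0.04, adjusted p = 0.0434), and the call was lost, at up to 0.123, unless the sample left out was control replicate 1 or SUPT4H1 replicate 2 of line 2. PRIM2 has near-identical copies in the genome, so its level is uncertain. POLD2, a small subunit of polymerase delta, had 29.6 and 30.7 FPKM in the controls and 31.6 and 33.7 in the treated samples of line 1, and 29.7 and 29.2 and then 32.5 and 30.5 in line 2. Its samples were apart within each line by about as much as replicates differ. The change of POLD2 was 0.10 (SE 0.03, adjusted p = 0.0264), lost at up to 0.0801 without control replicate 1 or SUPT4H1 replicate 2 of line 1, or without control replicate 2 or SUPT4H1 replicate 1 of line 2. POLD1 and POLD3 had -0.01 and 0.01, neither called, while POLD4, the smallest subunit of the same polymerase and no member of the 56, fell by 0.32 (SE 0.03, adjusted p = 0.000115). POLD4 went from 16.7 and 17.0 FPKM to 12.5 and 13.9 in line 1 and from 20.6 and 20.1 to 15.9 and 16.4 in line 2, with every treated sample below every control.

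The E2F and pocket protein group had a median of -0.02, with 1 member higher and 1 lower of 6 (16.7% each, against 26.8% and 15.2% of all genes). E2F1, an activator, was at 0.775 and 0.959 FPKM in the controls and 1.18 and 1.09 after SUPT4H1 siRNA in line 1, and at 1.34 and 1.26 and then 1.7 and 1.91 in line 2. Treated samples were above the controls of the same line in both lines. E2F1 rose 1.3-fold and 1.39-fold (log2 change 0.24, SE 0.05, adjusted p = 0.00584). E2F3, another activator, had 4.64 and 4.75 FPKM in the controls and 4.18 and 3.76 in the treated samples of line 1, and 5.21 and 5.62 and then 4.75 and 5.17 in line 2. The treated samples were below the controls within each line, by a margin in line 2 smaller than the gap between replicates. E2F3 fell by 0.15 (SE 0.04, adjusted p = 0.0208), and the call was lost at up to 0.059 without replicate 2 of either group of line 1, or without control replicate 2 or SUPT4H1 replicate 1 of line 2. The repressor E2F4 (-0.04, SE 0.03) and the pocket protein genes RB1 (0.05, SE 0.03), RBL1 (-0.02, SE 0.05) and RBL2 (-0.03, SE 0.02) were not called.

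Taken line by line, 17 of the 46 tested members rose and 1 fell in line 2. Line 1 had 6 of 46 higher and 2 lower. The background was 27% higher and 15.9% lower of all genes in line 2, and 19% higher and 11.7% lower in line 1. The 6 risers of line 1 were CCND1, CCND3, PCNA, RPA1, FEN1 and PRIM1, and MCM7 and E2F3 fell. Line 2 shared 5 of these 6, without PRIM1, and added ORC6, CDC6, GINS2, POLA2, POLE, RFC2, RFC3, LIG1, RRM2, TYMS, TK1 and E2F1, while MCM7 fell. The median change was 0.01 in line 1 and 0.11 in line 2, and for nucleotide supply 0.17 and 0.43, whereas all genes had 0.03 and 0.04. The difference between the responses was itself past the threshold for 1 member higher in line 2, RFC3, and for 0 members lower, against 5.39% and 4.49% of all genes. At an unadjusted p under 0.05 in limma it was higher in line 2 for 8 members, ORC6, CDC6, POLE, RFC2, RFC3, LIG1, RRM1 and TYMS, and lower for 0. The greater number of calls in line 2 is thus no test of a difference for members other than RFC3.

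RFC3, a clamp loader subunit, was at 2.71 and 2.57 FPKM in the controls of line 1 and 2.31 and 2.38 after SUPT4H1 siRNA. In line 2 it was at 1.49 and 1.79 in the controls and 2.0 and 2.13 after SUPT4H1 siRNA. The treated samples lay below the controls in line 1 and above them in line 2. The log2 change was -0.12 in line 1 (SE 0.06, adjusted p = 0.178) and 0.22 in line 2 (SE 0.06, adjusted p = 0.0212). Their difference of 0.34 (SE 0.09) had an adjusted p of 0.0451, which ranged up to 0.138 and no longer passed when any 1 sample other than control replicate 2 of line 2 was left out. RFC2 and POLE, which like RFC3 were lower in line 2 than in line 1 under control siRNA, had differences of 0.26 (adjusted p = 0.0923) and 0.25 (adjusted p = 0.0927). The same control samples enter both comparisons, so the comparisons are not independent. The part of the control values in these differences was not tested.

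**Figure D3:**
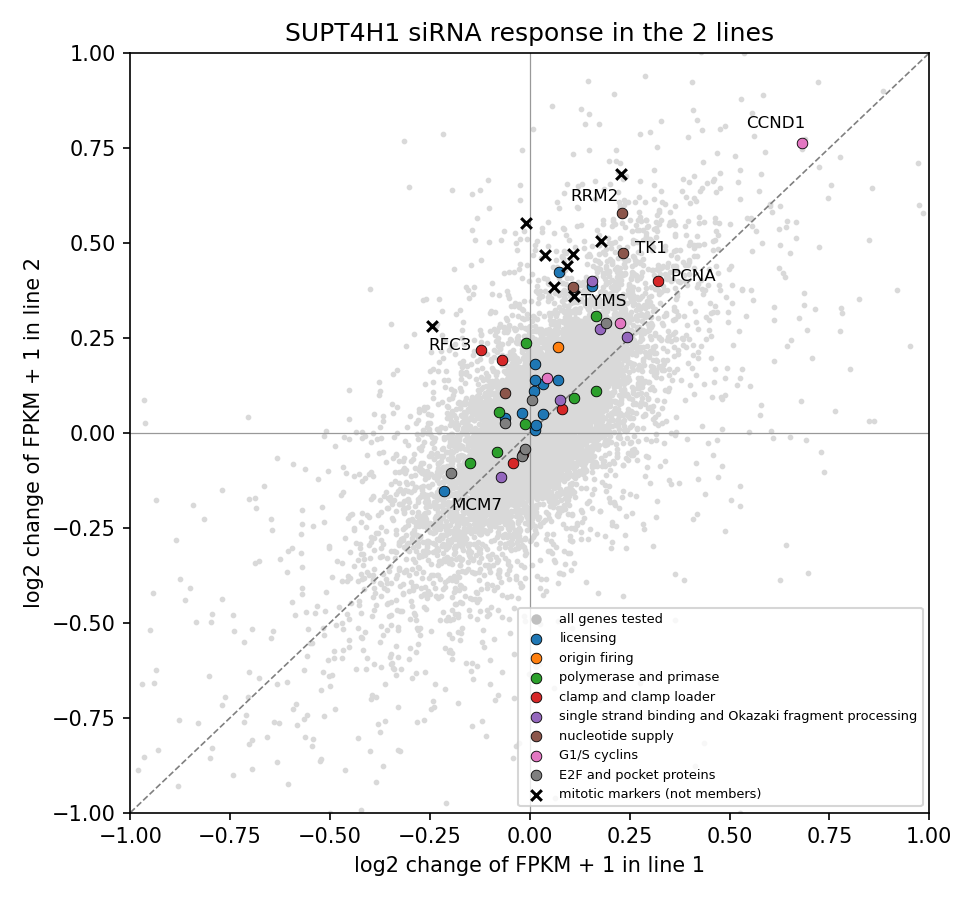
Log2 change of FPKM plus 1 in line 1 against that in line 2 for the 46 tested members, coloured by role, with the tested mitotic markers as crosses and all genes tested in grey (61 lie outside the axes). Most members and all mitotic markers lie above the dashed line of equal change, and RFC3 lies left of 0 in line 1 and above 0 in line 2.

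The lines already differed under control siRNA. There 12 of the 46 tested members were higher and 14 lower in line 2 than in line 1. All genes had 24.2% higher and 33.8% lower, so the members were near the background. CCND1 was 2.2 times as high in line 2 (log2 difference 1.13, SE 0.04, adjusted p = 2.10e-08), and TK1 2.22 times (log2 difference 0.88, SE 0.10, adjusted p = 3.30e-05). GINS2, MCM4, CCNE1, RRM2 and E2F1 were also higher in line 2, at 1.82, 1.38, 1.49, 1.42 and 1.5 times the level of line 1. RFC3 (log2 difference -0.47, SE 0.06, adjusted p = 0.000174) and POLE (log2 difference -0.43, SE 0.06, adjusted p = 0.000132) were lower in line 2. PCNA was lower too (-0.30, SE 0.04, adjusted p = 0.000114), as were RPA2, TYMS and ORC5. For POLE the SUPT4H1 siRNA samples of line 2, at 2.37 and 2.53 FPKM, lay between its controls at 1.98 and 1.88 and the controls of line 1 at 2.91 and 3.0. By FPKM, CCND1 was the highest member in every group, followed by PCNA and POLD2 with means of 36.3 and 30.9 FPKM, and E2F4 and RBL2 came next at 19.8 and 18.9. PCNA and POLD2 overlapped across samples, and so did E2F4 and RBL2.

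**Figure D4:**
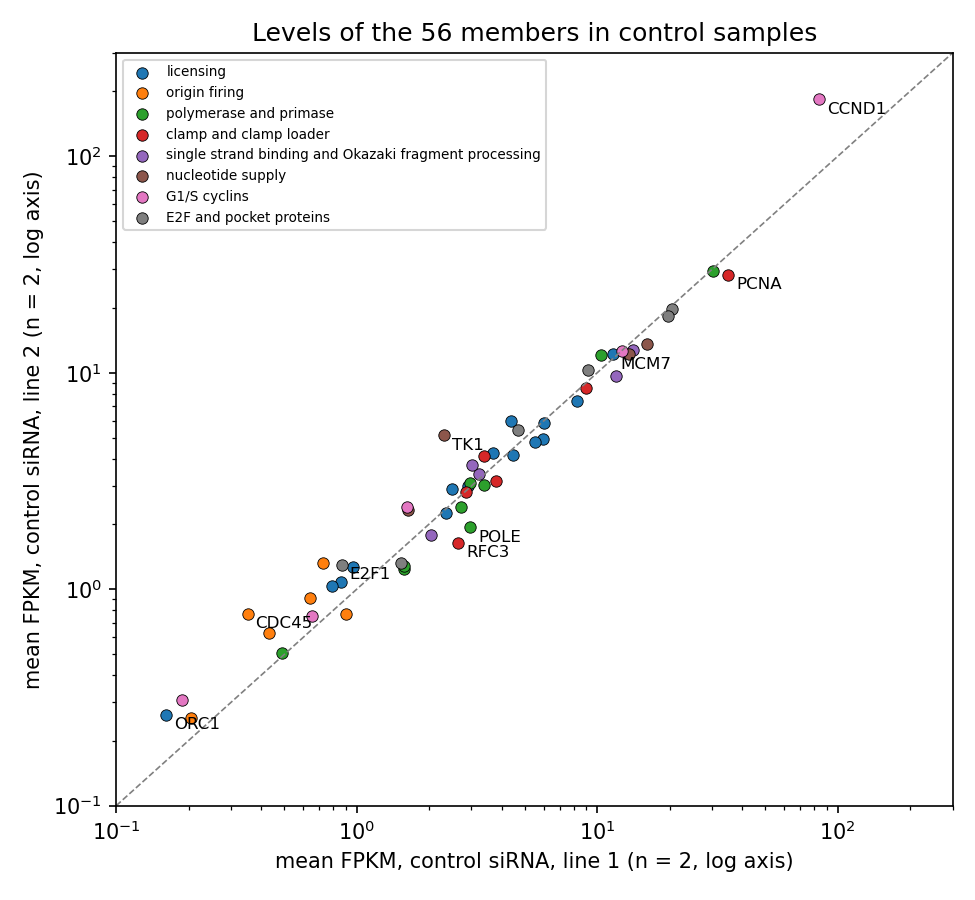
Mean FPKM of the 56 members in the control siRNA samples of line 1 and line 2 (n = 2 each, log axes), coloured by role, with a dashed line of equal level. CCND1 and TK1 lie above the dashed line, RFC3 and POLE below it, and most origin firing genes lie under 1 FPKM.

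Other genes of the pathway were read from 3 further lists. Without a term for the line, their counts of higher genes were 2 for the other replication and S phase genes, 1 for the other E2F, DREAM and CDK genes and 0 for the mitotic markers. Of the genes named here from those lists, POLD4, CDKN2B, ASF1B, CCNB2, CDK1, AURKA, TOP2A, CCNB1 and BIRC5 lost their calls in that fit, at adjusted p-values from 0.0645 for CDKN2B to 0.787 for BIRC5. Of 42 other replication and S phase genes 34 were tested, and 13 rose (38.2%) and 2 fell (5.88%), with a median log2 change of 0.09. All genes had 26.8% higher and 15.2% lower. ASF1B, a histone chaperone of replication, rose 1.41-fold and 1.66-fold in lines 1 and 2 (log2 change 0.38, SE 0.07, adjusted p = 0.00227). CHTF8, a subunit of an alternative clamp loader, rose by 0.26 (SE 0.02, adjusted p = 7.28e-05). Of 22 other E2F, DREAM and CDK genes 18 were tested, with 5 higher (27.8%), 2 lower (11.1%) and a median of -0.02. Their share of risers was near the background of 26.8%. E2F7, an atypical E2F that represses S phase genes, rose from 0.765 and 0.677 FPKM to 1.28 and 1.2 in line 1 and from 0.867 and 0.767 to 1.87 and 1.78 in line 2. Every treated sample of E2F7 lay above every control, with ratios of 1.72 and 2.23 (log2 change 0.51, SE 0.06, adjusted p = 0.000259). E2F7 reached the level for testing only through its treated samples (mean 1.53 FPKM, against 0.769 in the controls). A fall from that control level could not have been called. E2F7 also passed in the fit with no filter on level.

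Of the 12 mitotic markers 9 were tested, 6 rose and 0 fell in limma (0 lower at an unadjusted p under 0.05), with a median of 0.27 over both lines. The share of risers was 66.7%, against 26.8% of all genes. The count of 6 became 3 when any 1 sample of line 2 was left out. The median was 0.09 in line 1, where 1 was called, and 0.47 in line 2, where all 9 were. BUB1, 1 of the 9, reached the level for testing only through its treated samples, so a fall could not have been called. In line 1 it had 0.543 and 0.744 FPKM in the controls and 0.784 and 0.640 in the treated samples. In line 2 it had 1.006 and 1.022 and then 1.779 and 1.483. Over all genes 19% were called higher in line 1 and 27% in line 2, and 5.39% had a response called higher in line 2. For 5 of the 9 the difference between the lines passed the test, a number that ranged from 2 to 7 when 1 sample was left out. It was 2 without control replicate 2 or SUPT4H1 replicate 2 of line 1, or without control replicate 1 or SUPT4H1 replicate 2 of line 2, and 3 without control replicate 1 of line 1. CCNB2, a mitotic cyclin, went from 1.29 and 1.33 FPKM to 1.85 and 1.57 in line 1 and from 2.08 and 2.15 to 4.03 and 3.95 in line 2 (log2 change 0.46, SE 0.09, adjusted p = 0.00274; difference between lines 0.45, adjusted p = 0.00946). For CCNB2 that difference passed in all 8 fits that left out a sample. AURKA, a spindle kinase, rose by 0.29 (SE 0.07, adjusted p = 0.0124), with a difference between lines of 0.36 (adjusted p = 0.0285), which was lost at up to 0.0975 in 6 of those 8 fits, all but the ones without SUPT4H1 replicate 1 of either line. CDK1, the mitotic kinase, rose by 0.34 (SE 0.07, adjusted p = 0.00569), 1.17-fold in line 1 and 1.55-fold in line 2. TOP2A, a topoisomerase of dividing cells, CCNB1 and BIRC5 were called at 0.27 (adjusted p = 0.0205), 0.25 (adjusted p = 0.0419) and 0.24 (adjusted p = 0.0214), and each call was lost in 5 of the 8 fits that left out a sample (SUPT4H1 replicate 1 of line 1 or any sample of line 2). Not every marker was higher in line 1, and the next 3 are named after their values were seen. CDC20, an activator of the anaphase-promoting complex, was at 1.32 and 1.15 FPKM in the controls and 1.1 and 0.690 in the treated samples of line 1, and at 2.08 and 1.85 and then 2.73 and 2.48 in line 2 (ratios 0.725 and 1.32; log2 change over both lines 0.02, SE 0.11, adjusted p = 0.913). Its difference between lines was 0.53 (adjusted p = 0.0428), lost at up to 0.127 in 7 of those 8 fits, all but the one without SUPT4H1 replicate 1 of line 1. PLK1, a mitotic kinase, had ratios of 0.990 and 1.66 and a difference of 0.56 (adjusted p = 0.00471), which passed in all 8 fits. CENPF, a kinetochore gene below the level for testing, had ratios of 0.770 and 1.21. MKI67, the common proliferation marker, was below the level for testing, at 0.523 and 0.465 FPKM in the controls and 0.592 and 0.458 after SUPT4H1 siRNA in line 1 and 0.831 and 0.904 and then 1.34 and 1.39 in line 2. The part of these markers in the values of the replication genes was not tested.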

How the data were processed

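Polyadenylated RNA was sequenced from 8 samples. Expression was read from per-sample gene tables of FPKM deposited by the authors, with 95% intervals. The loci are on hg19, per the submitters' processing notes. Which aligner, quantifying tool, annotation and strand setting were used is not given in the sources used here. Each table had 27032 rows; rows of 1 symbol were summed (25268 symbols), and 2020 symbols of short RNAs were left out, because length-normalized values of such RNAs are unstable in this kind of library. Genes with a mean of at least 1 FPKM and a usable estimate in every sample (11442) were tested in limma 3.58.1 (R 4.3.3) on log2(FPKM + 1), 2-sided, with a mean-variance trend and line as a block, and p-values were adjusted by Benjamini-Hochberg over all tested genes at 0.05. Responses within each line, their difference and the difference between lines under control siRNA came from a fit of the 4 group means. The procedure was tested on simulated data. The planted changes were larger than those of every called member but CCND1, so calls of smaller changes were not covered. FPKM is relative within a library, so a shift of all RNA is not seen.

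The members and gene lists were chosen with earlier results of these data known. Named in full are up to 4 called members of largest change in each role (or the most abundant where none was called), members whose response differed between lines, the 10 other called pathway genes of largest change, and 9 fixed cell cycle genes. Replicate numbers were not used to pair samples in the main fit. Deviations of same-numbered samples from their group means correlated at 0.103 in line 1 and 0.0519 in line 2. With 2 samples in a group these low values cannot exclude a pairing. Deviations from the mean of each siRNA, which keep the line difference, correlated at 0.883 to 0.9 for samples of the same line. The alternatives were another pseudocount, other filters, scaling by median ratios, no trend, no symbols with several rows, other blocks and leaving out each sample. Promoters came from RefSeq (GRCh38.p14) and were matched by symbol; 47 of 56 members had an entry. Matplotlib 3.10.9 drew the figures.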

Additional observations from a re-analysis of the deposited data

Results flagged for a closer look

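Among 112 groups of 4 samples (56 members under each siRNA, both lines together), 4 held a sample that stood apart from the other 3 by more than Dixon's 95% limit for the gap divided by the range. Chance flags about 1 group in 20 when all 4 samples come from one population; these groups mix 2 lines that differ in many members, so that rate does not apply as it stands. MCM7 in control replicate 2 of line 2 was high, with a gap of 0.963 of the range. MCM6 in SUPT4H1 replicate 1 of line 2 stood apart with 0.939, MCM10 in control replicate 2 of line 2 with 0.898 and ORC4 in control replicate 1 of line 2 with 0.858. MCM7 stayed called as lower in every fit that left out 1 sample. RFC3 responded differently in the lines, by a log2 of 0.3413 in line 2 minus line 1. That difference passed narrowly (limma adjusted p = 0.0451) and did not pass in the fit with no filter on level.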

How the results depend on the processing

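No called member changed direction under the alternatives run. The estimates of ORC2, ORC3, GMNN, MCM6, POLD1, POLD3, RFC3, RRM1 and RBL1 over both lines, none of them called, took either sign, and under scaling by median ratios that of ORC2 was -0.02 and that of ORC3 -0.02. Without a block for the line, the counts over both lines were 2 higher and 0 lower, and with a replicate block of line and replicate number they were 14 and 3. At a mean of 5 FPKM or more, 19 members were tested, with 7 higher over both lines, 7 higher in line 2, 4 higher and 9 lower in line 2 under control siRNA, and a median of 0.0459. With no filter, 1 member fell over both lines, 0 fell in line 1 and 0 in line 2, and 0 differed between lines. After scaling by median ratios, 5 fell over both lines and 3 in line 2, 2 differed between lines (RFC3 and TYMS), and the median was 0.0459; the median of all genes moved from 0.0306 to 0.0006. Without the trend 0 fell in line 2. Leaving out each sample gave 13 to 17 higher and 1 to 3 lower over both lines, 4 to 6 higher and 0 to 3 lower in line 1, 12 to 17 higher and 0 to 1 lower in line 2, and 0 to 2 differences between lines (0 in 7 fits; 2, RFC3 and TYMS, without control replicate 2 of line 2). It gave 7 to 14 members higher and 7 to 14 lower in line 2 under control siRNA, and a median of 0.0423 to 0.0895, lowest without control replicate 1 of line 2. Of the 18 called members, 13 stayed called in every setting in which they were tested other than the fit without a block; the others were ORC6, PRIM1, PRIM2, POLD2 and E2F3. With 2 samples in a group, and intervals of 14.9 to 17.5% for genes of 1 to 2 FPKM, changes of the low members are resolved least.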
